A study of Mus musculus with 4 samples.

Results

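Tumor dendritic cells and macrophages from mice given a mixture of 2 adenoviruses, one of them carrying mouse interferon beta, were compared with the same kinds of cells from mice given an empty adenovirus. C57BL/6 mice carried subcutaneous melanomas grown from 500000 B16-F10 cells, a mouse melanoma line, and the tumors were injected with virus on day 12. The control library, Ad-Null, came from tumors injected with the empty vector. The Ad-COMBO library came from tumors injected with the virus labelled ISF35, a membrane-stabilized form of CD40 ligand, together with the virus for mouse interferon beta (mIFNB). Libraries labelled Ad-MEM40 (ISF35 alone) and Ad-mIFNB (interferon beta virus alone) are given beside them where their values help. Any comparison of those 2 libraries with Ad-Null shares its control with the Ad-COMBO comparison, so their values are only set side by side. Each library pooled 3 tumors, so there was 1 library per treatment, no spread between animals could be measured, and no comparison below carries a test between treatments. Tumor cells were sorted for surface CD11c and MHC class II before droplet single-cell RNA sequencing. The sort was on MHC class II protein, not RNA, and its purity was not measured here. The doses and the time from injection to harvest are not given in the sources used here.

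A barcode counted as a cell when 500 or more genes were detected in it and mitochondrial transcripts made up no more than 10%, and all such cells entered the comparison. They numbered 671 of 954 barcodes in Ad-COMBO and 8745 of 11308 in Ad-Null, together 9416 of the 26882 cells that passed in all 4 libraries. The transcripts of each gene, counted as unique molecular identifiers (UMIs), were summed per library and expressed as counts per 1e+06 UMIs (CPM). The 3 classes of cells below were set by marker genes and compared separately. The first held at least 2 UMIs each of Xcr1 and Clec9a, the second at least 2 UMIs each of Ccr7 and Fscn1, and the other at least 5 UMIs each of C1qa, C1qb and C1qc. Cells that met more than 1 gate (256 in Ad-Null, 15 in Ad-COMBO) were left out of the classes, and cells that met none are called cells of no gate.

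Dendritic cells take up material in a tissue and show it to T cells. XCR1 and CLEC9A mark conventional type 1 dendritic cells, which cross-present tumor antigen to CD8 T cells. CCR7 and fascin mark dendritic cells that have matured and can travel to lymph nodes, where costimulatory ligands and cytokines such as interleukin 12 shape how T cells are primed. C1q is made by tissue and tumor macrophages. Type I interferon signals through the receptor IFNAR to transcription factors that bind response elements in the promoters of antiviral genes. CD40, the receptor for CD40 ligand, activates NF-kB and drives ("licenses") dendritic cells to express costimulatory ligands.

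Depth differed between the libraries. Ad-Null held 160828179 UMIs in cells that passed and Ad-COMBO 9748429, with medians of 15277 and 11434 UMIs per cell, 3427 and 2794 genes, and 2.23% and 1.94% mitochondrial UMIs. The small Ad-COMBO library sets the precision: every interval given is a 95% interval for counting error and does not cover differences between tumors or between cells. The libraries shared 4 barcodes, 3 of them cells. Scrublet called 1374 Ad-Null cells (15.7%) and 3 Ad-COMBO cells (0.447%) doublets. These cells were kept, and values without them are given where they matter. Of 14 marker lists, those of dendritic cells, monocytes and macrophages were high in both libraries. Summed T or NK cell, B cell, neutrophil, mast cell or basophil and erythroid markers stayed between 0.0622 and 13.6 CPM. Fibroblast markers summed to 47.1 CPM in Ad-Null and 17.1 CPM in Ad-COMBO, endothelial markers to 36.7 and 86.6 CPM, and melanoma markers to 818 and 321 CPM. Of 4 compared endothelial markers, only 1 was at least 2-fold higher in Ad-COMBO. In cells of no gate the melanoma markers summed to 1461 and 713 CPM.

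The 2 dendritic cell classes made up more of the sorted cells in Ad-COMBO, and the C1q+ class made up less. Xcr1+ Clec9a+ cells were 792 cells or 9.06% (8.46 to 9.68%) of Ad-Null and 98 cells or 14.6% (12.0 to 17.5%) of Ad-COMBO. Ccr7+ Fscn1+ cells were 386 cells or 4.41% (3.99 to 4.87%) of Ad-Null and 88 cells or 13.1% (10.7 to 15.9%) of Ad-COMBO. The C1q+ class held 1636 cells or 18.7% (17.9 to 19.5%) of Ad-Null and 78 cells or 11.6% (9.30 to 14.3%) of Ad-COMBO. Without called doublets, Ad-Null held 696 Xcr1+ Clec9a+, 303 Ccr7+ Fscn1+ and 1210 C1q+ cells. Ad-COMBO held 98, 88 and 77, so called doublets lay almost only in the Ad-Null side of each class. Gates were also applied after each cell was thinned to 2000 UMIs. They then asked for only 1 UMI of each dendritic cell gate gene and 2 UMIs of each C1q gene. The C1q+ shares were then 12.9% (12.2 to 13.7%) in Ad-Null and 10.1% (7.86 to 12.8%) in Ad-COMBO, so their counting intervals overlapped at matched depth. Those of the other 2 classes did not overlap there, at 1.97% and 4.08% for Xcr1+ Clec9a+ cells and 3.8% and 12.3% for Ccr7+ Fscn1+ cells. The Ccr7+ Fscn1+ share was highest in Ad-COMBO among the 4 libraries: it was 4.75% in Ad-MEM40 and 8.29% in Ad-mIFNB. The C1q+ share was 11.6% in Ad-mIFNB, as low as in Ad-COMBO, and 24.0% in Ad-MEM40. The Xcr1+ Clec9a+ share was 9.34% in Ad-mIFNB, near that of Ad-Null, and 5.78% in Ad-MEM40. These are shares of sorted cells, so the sort on CD11c and MHC class II, and any fall in other cells, bear on them. A change in a gate gene's level would also move a share.

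**Figure D1:**
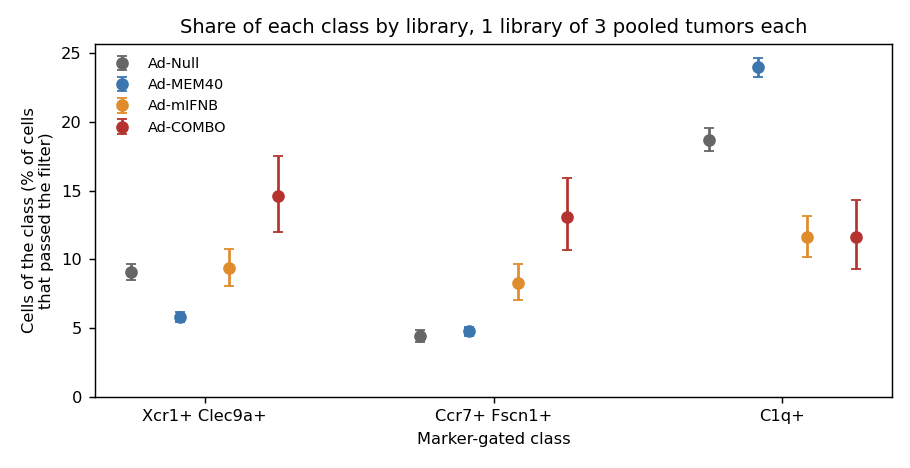
Share of cells in each marker-gated class (vertical axis, percent of cells that passed the filter) for the 4 libraries, each 1 library of 3 pooled tumors; points are shares and bars are exact 95% binomial intervals. The Ad-COMBO points lie above Ad-Null for both dendritic cell classes (14.6% against 9.06%, and 13.1% against 4.41%) and below it for C1q+ cells (11.6% against 18.7%).

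Over all cells antiviral genes were higher in Ad-COMBO. A gene was compared when both libraries together held at least 50 UMIs, and it is called higher or lower when CPM differed at least 2-fold after 5 CPM were added to both sides. Where 2 CPM values stand together below, the first is Ad-Null and the second Ad-COMBO. By the 2-fold rule 331 of 13863 genes (2.39%) were higher in Ad-COMBO and 78 (0.563%) were lower. Of the 40 compared genes of the type I interferon list, 36 were higher, none was lower, and the median log2 ratio was 1.62, against -0.01 over all genes compared. Mx1 and Mx2 were not matched in the files. Ifit1 and Ifit3, which bind foreign RNA or the complex that does so, measured 48.4 and 74.3 CPM in Ad-Null and 406 and 497 CPM in Ad-COMBO. Rsad2 (viperin, which makes a chain-terminating nucleotide) measured 104 CPM in Ad-Null and 1048 CPM in Ad-COMBO, a fold of 10.1 (95% interval 9.86 to 10.4). It was detected in 3693 of the 8745 Ad-Null cells and 561 of the 671 Ad-COMBO cells. Isg15, a ubiquitin-like protein, was already abundant at 545 CPM and reached 2455 CPM. Irf7, the transcription factor that amplifies interferon production, measured 228 and 1007 CPM. Usp18, which removes ISG15 and dampens the receptor, measured 60.6 and 287 CPM. The 4 compared members that did not reach 2-fold were Irf9 (log2 ratio 0.93), Ifi35 (0.78), Eif2ak2 (0.79) and Oas1a (0.74).

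The promoters of 4 of these genes are shown because they hold the sequence that interferon-activated factors are known to bind. The core of the interferon-stimulated response element was searched as GAAANNGAAA on both strands, in the RefSeq table of promoters of 300 bases that end just past each gene start, on GRCm38.p6. Matches are in capitals, and a match on the other strand reads TTTCNNTTTC.
Ifit1bl1: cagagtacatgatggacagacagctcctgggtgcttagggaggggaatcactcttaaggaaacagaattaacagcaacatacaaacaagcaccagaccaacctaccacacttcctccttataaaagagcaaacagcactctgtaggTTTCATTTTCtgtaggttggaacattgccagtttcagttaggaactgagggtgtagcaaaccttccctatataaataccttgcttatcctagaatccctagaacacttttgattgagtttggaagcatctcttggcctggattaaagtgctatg
Rsad2: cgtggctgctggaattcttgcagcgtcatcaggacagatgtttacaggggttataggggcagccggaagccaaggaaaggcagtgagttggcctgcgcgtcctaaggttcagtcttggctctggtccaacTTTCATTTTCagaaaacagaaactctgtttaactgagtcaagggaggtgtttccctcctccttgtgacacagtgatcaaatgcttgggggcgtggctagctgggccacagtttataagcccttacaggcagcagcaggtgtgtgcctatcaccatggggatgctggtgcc
Ifit3b: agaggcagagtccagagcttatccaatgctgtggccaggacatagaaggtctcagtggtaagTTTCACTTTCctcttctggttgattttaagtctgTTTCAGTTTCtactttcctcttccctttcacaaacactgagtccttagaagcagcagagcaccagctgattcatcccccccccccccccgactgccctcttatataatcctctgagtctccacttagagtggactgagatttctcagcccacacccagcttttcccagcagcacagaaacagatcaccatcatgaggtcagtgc
Ifit1: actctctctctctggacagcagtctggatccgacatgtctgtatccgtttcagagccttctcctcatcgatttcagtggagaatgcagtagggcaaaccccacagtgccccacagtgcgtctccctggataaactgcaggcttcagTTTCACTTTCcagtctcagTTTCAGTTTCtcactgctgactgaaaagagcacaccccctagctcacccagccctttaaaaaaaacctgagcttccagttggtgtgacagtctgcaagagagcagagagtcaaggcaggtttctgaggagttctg

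Each is read 5′ to 3′ on its gene's strand. Ifit1bl1 is at chr19:34601919-34602218 on the minus strand, Rsad2 at chr12:26456403-26456702 on the minus strand, Ifit3b at chr19:34607707-34608006 and Ifit1 at chr19:34640639-34640938, both on the plus strand. Ifit3b and Ifit1 carry 2 matches each, and the other two carry 1. Of all 32851 promoters of this length in the table, 1131 (3.44%) held a match. Counted by gene symbol, 1079 of 27025 (3.99%) held a match in at least 1 promoter. Of the 32 genes of the type I interferon list that had a promoter there, 17 (53.1%) did. The list's genes are known interferon targets, so this describes the list and does not test it. Only 10477 of the 13863 compared genes had a promoter in the table, too few to compare shares between higher and lower genes.

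The difference was present in most cells, not in a few. Per cell, the interferon list made up a median of 40 of every 10000 UMIs in Ad-Null, 45 in Ad-MEM40, 145 in Ad-mIFNB and 145 in Ad-COMBO, after each cell was thinned to 2000 UMIs and shallower cells were left out. Without thinning, the same cells had medians of 39.9 in Ad-Null and 147 in Ad-COMBO. Of 612 Ad-COMBO cells of that depth, 429 (70.1%) exceeded 95, a level that at most 10% of Ad-Null cells exceeded, and 3.10% lay below the Ad-Null median. Within the classes the Ad-COMBO medians were 112.5 in Xcr1+ Clec9a+ cells, 110 in Ccr7+ Fscn1+ cells, 130 in C1q+ cells and 185 in cells of no gate. The matching Ad-Null medians were 35 to 40. Ad-COMBO lay near Ad-mIFNB in every class, while Ad-MEM40 lay near Ad-Null.

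**Figure D2:**
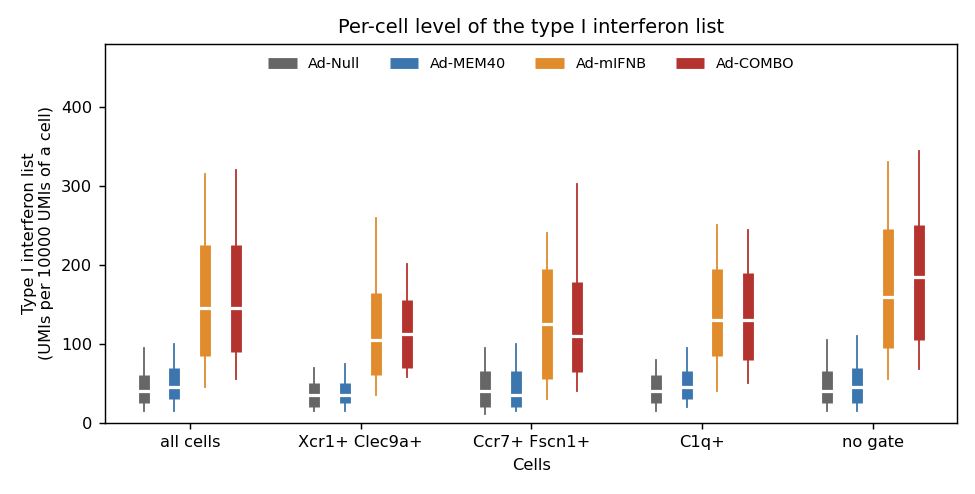
UMIs of the type I interferon list per 10000 UMIs of a cell (vertical axis), for all cells and each class in the 4 libraries, in cells thinned to 2000 UMIs; the white line is the median over cells, the thick bar spans the middle 50% of cells and the thin line the middle 80%. Over all cells the median is 40 in Ad-Null and 145 in Ad-COMBO, and the middle 50% of the 2 libraries do not overlap.

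Other genes that led the list of higher genes have separate roles. Sct, which encodes the hormone secretin, measured 2.98 CPM in Ad-Null, 2.35 in Ad-MEM40, 53.2 in Ad-mIFNB and 60.0 in Ad-COMBO. Apod (apolipoprotein D) measured 11.5 and 98.1 CPM in Ad-Null and Ad-COMBO, and Ly6c2, a surface protein of inflammatory monocytes and some plasmacytoid dendritic cells, 100.3 and 620.0 CPM. Ccl5, a chemokine for T cells, measured 378 and 1916 CPM. Sema7a, a membrane-anchored semaphorin, measured 11.1 CPM in Ad-Null, 16.99 in Ad-MEM40, 18.2 in Ad-mIFNB and 74.1 in Ad-COMBO, so that the Ad-COMBO value was above both single viruses. Saa3, a serum amyloid A protein of the acute phase, measured 20.5 and 182 CPM, but its Ad-COMBO UMIs came from 38 cells and 1 of them held 29.3%.

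The genes most lower in Ad-COMBO were markers of alternative activation, histones and melanoma genes. Retnla (resistin-like alpha), a marker of macrophages exposed to interleukin 4, measured 206 CPM in Ad-Null and 0.923 CPM in Ad-COMBO, a log2 ratio of -5.16 that was larger in size than that of any higher gene named. It was 266 CPM in Ad-MEM40 and 13.6 CPM in Ad-mIFNB. Cd209a, a lectin of dendritic cells derived from monocytes, measured 148 and 14.3 CPM, and F13a1, the A chain of clotting factor XIII, 56.6 and 9.23 CPM. Ccr2, through which monocytes follow chemokines into tissue, measured 261 and 68.5 CPM. Hist1h2ap, a histone made in S phase, measured 725 CPM in Ad-Null, 270 in Ad-MEM40, 81.5 in Ad-mIFNB and 82.0 in Ad-COMBO. The melanoma gene Dct measured 313 and 77.0 CPM, with 82.4% of its Ad-COMBO UMIs in 1 cell. Of the 15 compared genes of the alternative activation list, 8 were lower and none was higher (median -1.03). A lower level in summed cells cannot be told apart from fewer cells that express the gene.

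Among the other lists over all cells, 15 of 24 dendritic cell migration and maturation genes were higher (median 1.25). When the classes and cells of no gate of Ad-COMBO were weighted to their shares of UMIs in Ad-Null, 7 were (DC migration and maturation median 0.83). Cells of more than 1 gate were left out of that weighting. Of the costimulation and T cell priming ligands, 11 of 23 were higher (median 0.95). Weighted in the same way 9 were (median 0.79), and among the 9 at 50 CPM or more in 1 library, 5 were. Cd40 itself measured 53.8 and 150.3 CPM. Il12b, the p40 chain of interleukins 12 and 23, measured 55.7 and 217 CPM. Il15 and Il15ra, the cytokine that supports CD8 T and NK cells and the receptor chain that presents it, measured 10.1 and 8.58 CPM in Ad-Null and 44.6 and 44.0 CPM in Ad-COMBO. Higher were also 8 of 23 MHC class I genes (median 0.72), 10 of 22 genes associated with interferon gamma (0.98), 7 of 25 CD40 and NF-kB targets (0.61) and 6 of 21 pathogen sensors (0.63). No MHC class II gene differed 2-fold over all cells (0 of 14, median -0.12).

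Further lists over all cells were inhibitory molecules (4 higher of 19, median 0.51), chemokines (6 higher and 1 lower of 21, 0.38), chemokine and cytokine receptors (2 and 1 of 24, 0.19) and cross-presentation (4 higher of 18, 0.50). The cell cycle list had 3 lower of 20 (median -0.70). Cholesterol synthesis (18 genes, median -0.34) and glycolysis (19 genes, -0.40) had none in either direction. Inflammasome, unfolded protein response and phagocytosis lists had 1 higher gene each, with medians of 0.02, -0.15 and 0.08. The dissociation and heat stress list, which marks handling of the tissue, had 3 higher of 17 (median 0.44), and its part in the other differences was not tested.

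The NF-kB side can be shown with 2 promoters that hold the site GGGNNTTTCC, searched on both strands in the same table and printed with matches in capitals (on the other strand GGAAANNCCC). Nfkb2, the precursor of the p52 subunit that CD40 releases, had a log2 ratio of 0.81 over all cells, and Tnfaip3 (A20), an inhibitor that NF-kB itself induces, 0.80; neither reached 2-fold.
Nfkb2: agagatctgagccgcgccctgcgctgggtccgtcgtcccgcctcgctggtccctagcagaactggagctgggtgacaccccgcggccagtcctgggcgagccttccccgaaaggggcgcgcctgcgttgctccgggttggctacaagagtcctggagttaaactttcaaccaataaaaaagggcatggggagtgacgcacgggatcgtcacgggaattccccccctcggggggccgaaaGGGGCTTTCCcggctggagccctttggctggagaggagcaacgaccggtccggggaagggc
Tnfaip3: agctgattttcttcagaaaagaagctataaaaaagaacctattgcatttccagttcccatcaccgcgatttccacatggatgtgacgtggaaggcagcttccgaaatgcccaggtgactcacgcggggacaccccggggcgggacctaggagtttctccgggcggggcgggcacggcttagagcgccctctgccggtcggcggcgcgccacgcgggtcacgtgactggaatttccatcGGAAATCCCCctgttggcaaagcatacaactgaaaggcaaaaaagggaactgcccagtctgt

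Nfkb2 is at chr19:46304487-46304786 on the plus strand and Tnfaip3 at chr10:19015361-19015660 on the minus strand. Tnfaip3 had 2 promoters listed, of which only the 1 shown held the site. Among all promoters of that length, 535 (1.63%) held this site, and 7 of the 22 matched genes of the NF-kB list (31.8%) did. As with the interferon element, the letters are a description and not evidence of binding.

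In Xcr1+ Clec9a+ cells, conventional type 1 dendritic cells by their markers, Ad-COMBO had higher interferon and NF-kB genes and lower cell cycle genes. The 10 cDC1 markers, which include the gate genes, summed to 5141 CPM in Ad-Null and 5846 CPM in Ad-COMBO, and 1 of them, the adhesion molecule Cadm1, reached 2-fold (53.1 and 135 CPM). Median depths were 24116 and 25204 UMIs per cell. Of 10655 genes compared (at least 30 UMIs over both libraries), 243 (2.28%) were higher in Ad-COMBO and 184 (1.73%) lower. The interferon list had 30 of 40 genes higher (median 1.61). Ifit2 measured 36.0 CPM in Ad-Null, 53.6 in Ad-MEM40, 559 in Ad-mIFNB and 453 in Ad-COMBO. Cxcl10, a chemokine that attracts CXCR3+ T cells, had the order 93.1, 100.2, 148 and 499 CPM in the same 4 libraries. Its Ad-COMBO value thus stood above either single virus, while Cxcl9, another ligand of CXCR3, measured 398 and 480.4 CPM in Ad-Null and Ad-COMBO.

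The CD40 and NF-kB list had 12 of 25 genes higher in these cells and none lower (median 0.91). Tnfaip3 measured 65.6 CPM in Ad-Null, 158 in Ad-MEM40, 48.2 in Ad-mIFNB and 227 in Ad-COMBO. Nfkbia, the inhibitor that holds NF-kB in the cytoplasm, measured 335 and 887 CPM, and Traf1, an adaptor of CD40 and its relatives, 100.4 and 292 CPM. Tnf, an inflammatory cytokine, measured 36.6 CPM in Ad-Null, 59.0 in Ad-MEM40, 67.6 in Ad-mIFNB and 148 in Ad-COMBO. Genes that react to tissue handling moved in the same direction: 6 of 17 of the dissociation list were higher (median 0.82), among them the early response genes Dusp1 (451 and 1094 CPM) and Zfp36 (491 and 1201 CPM). Some of these are NF-kB targets too, and their part in the NF-kB counts was not tested.

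Of the priming ligands, 6 of 14 were higher (median 0.94). Tnfsf9 (4-1BB ligand) measured 20.7 and 55.5 CPM, and Cd274 (PD-L1, which restrains T cells) 41.1 and 151 CPM. Il12b measured 24.2 and 116 CPM, but in Ad-COMBO its UMIs came from 11 cells, and at a matched depth of 2000 UMIs 2.90% of cells in Ad-Null and 2.04% in Ad-COMBO had one. Its log2 ratio was 2.05 as summed and 0.69 without the cell with the most UMIs in each library. Ccr7 measured 11.3 and 135 CPM, from 13 Ad-COMBO cells of which 1 held 29.9%. Cells with 2 UMIs of both Ccr7 and Fscn1 had been left out of this class, so that value is bounded by the gate. MHC class II genes did not differ 2-fold in either direction (median 0.16): H2-Aa measured 5902 and 6922 CPM, and their activator Ciita 187 and 222 CPM.

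Lower in Ad-COMBO were 12 of 20 cell cycle genes (median -1.06). Top2a, which untangles DNA in dividing cells, measured 324 CPM in Ad-Null, 349 in Ad-MEM40, 154 in Ad-mIFNB and 141 in Ad-COMBO. Birc5 (survivin) measured 154 CPM in Ad-Null and 50.1 CPM in Ad-COMBO. The histone Hist1h2ap measured 1622 CPM in Ad-Null, 758 in Ad-MEM40, 229 in Ad-mIFNB and 157 in Ad-COMBO. It was thus lower in Ad-MEM40 too, where Top2a was not. At matched depth, 29.4% of Ad-Null cells and 17.3% of Ad-COMBO cells had a UMI of Mki67, a proliferation marker (56.1% and 43.9% unthinned). Ccr2 measured 284 CPM in Ad-Null, 251 in Ad-MEM40, 158 in Ad-mIFNB and 46.3 in Ad-COMBO. Gpr183, the receptor for oxysterols that positions dendritic cells, measured 102 and 16.7 CPM. Macrophage transcripts, which can enter a droplet as free RNA, were lower too. Of 11 compared macrophage markers 4 were lower and none higher, their sum going from 174 CPM in Ad-Null to 85.98 CPM in Ad-COMBO, with 2 members at 0 UMIs in 1 library.

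The remaining lists of this class were counted in the same way. MHC class I genes had 4 higher of 23 (median 0.47), interferon gamma genes 4 of 21 (0.51), and pathogen sensors 2 of 19 (0.44). Migration and maturation genes had 6 higher of 20 (median 0.56), a median that was near 0 when the gates asked for more UMIs. The cross-presentation genes had 1 higher of 18 (median 0.26), and chemokines had 4 higher and 4 lower of 16 (0.03).

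In Ccr7+ Fscn1+ cells, mature dendritic cells by their markers, Ad-COMBO had higher ligands and cytokines of T cell priming and lower MHC class II genes. The 10 mature dendritic cell markers, gate genes included, summed to 5274 CPM in Ad-Null and 8524 CPM in Ad-COMBO. Of 9223 genes compared, 456 (4.94%) were higher and 491 (5.32%) lower. The median log2 ratio over genes at 50 CPM or more was 0.135 here and within 0.1 of 0 elsewhere, so a log2 ratio in this class is read against that shift. The class held 386 cells at a median of 15349 UMIs in Ad-Null and 88 cells at 10927 UMIs in Ad-COMBO.

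Of the costimulation and priming list, 12 of 20 genes were higher and none was lower (median 1.36). Cd70, the ligand of CD27 on T cells, measured 19.3 CPM (16.2 to 22.8) in Ad-Null and 162 CPM (138 to 188) in Ad-COMBO. It was 108 CPM in Ad-MEM40 and 40.5 CPM in Ad-mIFNB. Cd80 and Cd86, the ligands of CD28, measured 134 and 274 CPM in Ad-Null and 338 and 713 CPM in Ad-COMBO. Cd86 was 336 CPM in Ad-MEM40 and 324 CPM in Ad-mIFNB, so that neither single virus library came near the Ad-COMBO value. Cd40 measured 179 CPM in Ad-Null, 336 in Ad-MEM40, 329 in Ad-mIFNB and 466 in Ad-COMBO. Icam1, an adhesion molecule for T cells, measured 159 and 454 CPM, and Tnfsf9 121 and 372 CPM. Slamf1 measured 7.70 CPM in Ad-Null, 16.9 in Ad-MEM40, 2.83 in Ad-mIFNB and 55.5 in Ad-COMBO. Tnfsf4 (OX40 ligand) stood at similar levels, 28.7 and 27.8 CPM.

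Among the cytokines, Ebi3 and Il27, the chains of interleukin 27, measured 56.7 and 10.5 CPM in Ad-Null and 381 and 159 CPM in Ad-COMBO. Ebi3 was lower in the single-virus libraries than in Ad-COMBO, at 154 CPM in Ad-MEM40 and 113 CPM in Ad-mIFNB. Il27 came from 24 Ad-COMBO cells, 1 of which held 36.7% of its UMIs. Il15 measured 28.8 CPM in Ad-Null, 47.3 in Ad-MEM40, 56.1 in Ad-mIFNB and 111 in Ad-COMBO, and Il15ra 55.0, 70.5, 68.8 and 209.6 CPM. Il6, an inflammatory cytokine, measured 29.4 and 150.3 CPM in Ad-Null and Ad-COMBO. Il12b measured 526 and 1024 CPM, a log2 ratio of 0.96 that missed 2-fold.

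Shares of cells at a matched depth of 2000 UMIs pointed the same way for most of these genes. In Ad-Null 384 of 386 cells and in Ad-COMBO 84 of 88 reached that depth. A Cd70 UMI was found in 4.95% of Ad-Null cells and 25% of Ad-COMBO cells. For Il27 the shares were 0.781% and 15.5%, for Il15ra 12.2% and 36.9%, for Cd40 26.6% and 58.3%, and for Cd86 38.5% and 64.3%. Unthinned, the Cd70 shares were 19.7% and 45.5%. Il12b was found in 25.5% and 31.0% of cells, and in 1.47% and 1.299% of C1q+ cells. Free RNA was not measured, so it cannot be told apart from expression by the C1q+ cells themselves. Per cell, the thinned level of the priming list had a median of 20 in 10000 UMIs in Ad-Null and 50 in Ad-COMBO.

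The CD40 and NF-kB list had 8 of 25 genes higher and none lower in this class (median 0.75). Tnf measured 111 CPM in Ad-Null, 182 in Ad-MEM40, 249 in Ad-mIFNB and 576 in Ad-COMBO. Bcl2l1, which keeps cells from apoptosis, measured 22.5 and 82.3 CPM. The interferon list had 31 of 40 higher (median 1.47). Molecules that restrain T cells were mixed, with 5 higher and 3 lower of 17 (median 0.60). Cd274 measured 414 CPM in Ad-Null, 538 in Ad-MEM40, 532 in Ad-mIFNB and 1075 in Ad-COMBO, and Cd200, the ligand of an inhibitory receptor, 264 and 644 CPM in Ad-Null and Ad-COMBO. Of the chemokines, 5 were higher and 4 lower of 18 (median 0.40). Ccl5 measured 4031 CPM in Ad-Null, 5206 in Ad-MEM40, 10622 in Ad-mIFNB and 10759 in Ad-COMBO, one of the most abundant transcripts of the class. Cxcl9 went the other way, at 697, 540.1, 172 and 176 CPM in the same order. At matched depth 31.2% of cells in Ad-Null and 13.1% in Ad-COMBO had a Cxcl9 UMI.

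MHC class II genes were lower in these cells: 11 of 14 genes of the list were lower and none higher (median -1.69). Ciita, the master activator of MHC class II transcription, measured 141 CPM (132 to 149.7) in Ad-Null and 30.6 CPM (21.0 to 43.2) in Ad-COMBO. It was 105 CPM in Ad-MEM40 and 90 CPM in Ad-mIFNB. The chains that present peptide were lower as well: H2-Aa measured 5632 CPM in Ad-Null, 4922 in Ad-MEM40, 5185 in Ad-mIFNB and 2386 in Ad-COMBO. H2-Ab1 measured 5606, 4466, 4168 and 1622 CPM in the same order, and the invariant chain Cd74 13914, 10758, 10791 and 4961 CPM. For both single-virus libraries the values thus lay nearer to Ad-Null. The H2-DM chains, which exchange the peptide, measured 430.2 and 71.8 CPM for H2-DMa and 339.8 and 47.9 CPM for H2-DMb1. March1, a ubiquitin ligase that sends MHC class II to degradation, measured 36.5 and 5.74 CPM. Members that act on antigen or the invariant chain in the lysosome did not reach 2-fold, Ctss (cathepsin S) at 1219.6 and 1064 CPM and Lgmn (legumain) at 188 and 319.7 CPM. MHC class I genes went the other way, with 7 of 23 higher (median 0.52). All cells had been sorted on MHC class II protein, and these are RNA levels.

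Transcripts of other myeloid cells were also lower in this class. Lyz2 (lysozyme) measured 502 CPM in Ad-Null, 712 in Ad-MEM40, 58.4 in Ad-mIFNB and 12.4 in Ad-COMBO. Cd209a, Fn1 and Retnla measured 100.1, 90.7 and 88.5 CPM in Ad-Null, and no UMI of the 3 was found in Ad-COMBO (limit 2.87 CPM for each). In Ad-Null the cell with the most UMIs of the gene held 12.7% of them for Cd209a, 20.2% for Fn1 and 59.2% for Retnla. Of the 10 cDC2 markers 5 were lower and none higher, with sums of 1431 and 1129.5 CPM, 1 marker being at 0. Of 8 compared monocyte markers 4 were lower and 1 higher, with 3 at 0 and sums of 919 and 1239 CPM. Macrophage markers had 4 lower of 11 and summed to 443 and 259 CPM. Without cells that held 2 or more UMIs of Lyz2 or Cd209a, a choice made after seeing the data that left 223 Ad-Null and 85 Ad-COMBO cells, 10 MHC class II presentation genes were still lower (median -1.31). Without called doublets 11 were (median -1.40). All lower genes numbered 265 in each case, against 491.

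**Figure D3:**
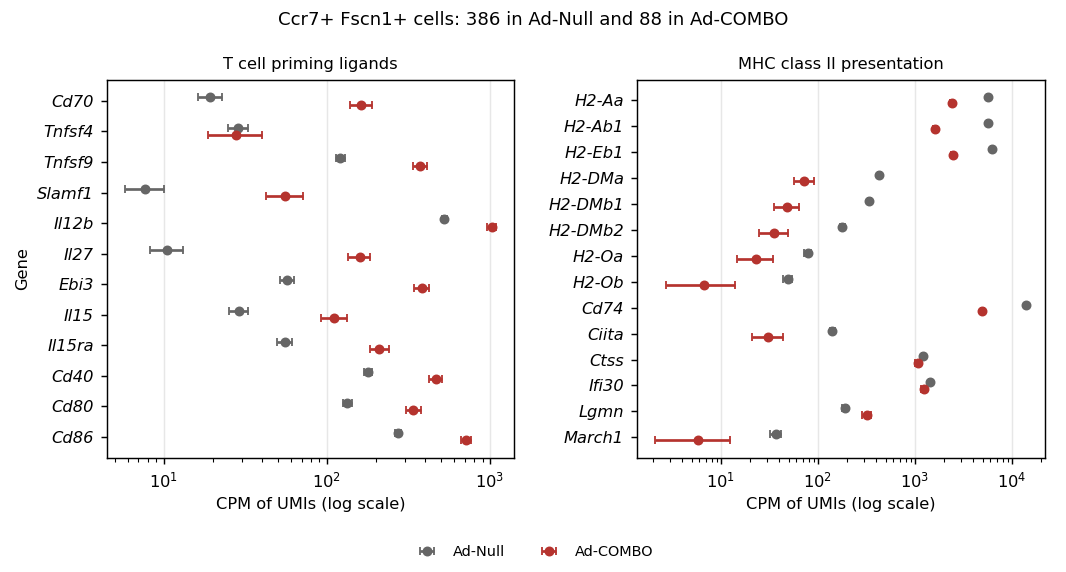
CPM of UMIs (horizontal log axis) in Ccr7+ Fscn1+ cells of Ad-Null (grey) and Ad-COMBO (red), for ligands and cytokines of T cell priming (left) and genes of MHC class II presentation (right); points are 1 library each and bars are exact 95% Poisson intervals, often narrower than the point. All priming genes drawn except Tnfsf4 and Il12b are at least 2-fold higher in Ad-COMBO, and Ciita and the MHC class II chains are lower. Il12b stands above Ad-Null by less than 2-fold.

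Several genes with the largest ratios in this class came from few cells. Dll4, a Notch ligand, measured 1.96 CPM in Ad-Null, 26.8 in Ad-MEM40, 7.07 in Ad-mIFNB and 87.1 in Ad-COMBO, in 15 Ad-COMBO cells. Nupr1, a stress-response regulator, measured 80.4 and 806 CPM, with UMIs in 41 Ad-COMBO cells. The chemokine Cxcl1 measured 23.7 and 214 CPM, and Plat, tissue plasminogen activator, 5.46 and 67.0 CPM. Hamp (hepcidin) held 80.5% of its Ad-COMBO UMIs in 1 cell, and H2-M2, a nonclassical MHC class I gene, 66.7%. Ly6c2 (45.8 and 648 CPM, 18 Ad-COMBO cells), Sct (7.56 and 147 CPM, 13 cells) and Ly6d (7.42 and 133 CPM, 3 cells) stood beside markers of plasmacytoid dendritic cells. Of the 10 pDC markers 7 were higher, none was at 0, and their sum went from 595 to 1854 CPM, of which Bst2, also an interferon target, was 363 and 1203 CPM. The defining marker Siglech measured 8.54 and 61.3 CPM. Without cells that held a Siglech UMI, a choice made after seeing the data, the log2 ratio was 3.00 for Ly6c2 (from 3.68) and 2.72 for Cd70 (from 2.78).

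Some metabolic genes were lower in this class, in numbers that moved with the choice of cells. Of 17 cholesterol synthesis and uptake genes 7 were lower (median -0.83), Fdps, which makes farnesyl diphosphate, at 178 and 43.1 CPM. The number was 4 of 18 with cells of more than 1 gate kept, 2 of 10 thinned to 2000 UMIs, 2 of 9 at 50 CPM or more, and 10 of 17 without cells with Siglech. Of 19 glycolysis and hypoxia genes 5 were lower (median -0.59), among them Eno1 (enolase, 263 and 88.1 CPM) and Ldha (lactate dehydrogenase, 447 and 194 CPM). That number was 3 of 18 without called doublets, 3 of 15 thinned, 2 of 17 without cells with Lyz2 or Cd209a, 2 of 19 with cells of more than 1 gate kept, and 13 with gates at 1 UMI. The cell cycle list had 6 lower of 20 (median -0.70, or -0.54 with genes at 0 UMIs set to 3 UMIs). It had 2 lower of 15 without called doublets, 1 of 5 thinned, 2 of 4 at 50 CPM or more, 10 of 20 with 1 CPM added or with gates at 4, 4 and 10 UMIs, 11 with cells of more than 1 gate kept and 13 with gates at 1 UMI. Receptors had 7 lower of 23, including Ifngr1, a chain of the interferon gamma receptor (102 and 36.4 CPM). The phagocytosis and lysosome list had 6 lower of 19 (median -0.81), and its median was 0.03 without the cells with Lyz2 or Cd209a. The alternative activation list had 8 lower of 9 (median -2.79), 6 of 8 without called doublets (median -1.88), 5 of 6 thinned, and 3 of 5 without the cells with Lyz2 or Cd209a (median -1.61).

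In C1q+ cells, macrophages by their markers, Ad-COMBO had higher genes of the type I interferon and interferon gamma lists, while the priming and NF-kB lists with many higher members in dendritic cells had few or none here. Macrophage markers, gate genes included, summed to 9951 CPM in Ad-Null and 15497 CPM in Ad-COMBO, with 4 of 12 higher. Of 12039 genes compared, 248 (2.06%) were higher and 126 (1.05%) lower. The interferon list had 31 of 40 higher (median 1.45). Ifitm1 (interferon-induced transmembrane protein 1), which is not in that list, was lower, at 244 CPM in Ad-Null and 60.6 CPM in Ad-COMBO. Of its Ad-COMBO UMIs 63.9% lay in 1 cell. The log2 ratio of Ifitm1 was -1.93 here, -1.96 in Xcr1+ Clec9a+ cells, -2.39 in Ccr7+ Fscn1+ cells and -0.24 in cells of no gate. Rsad2 measured 131 CPM in Ad-Null, 185 in Ad-MEM40, 1093 in Ad-mIFNB and 1442 in Ad-COMBO, and at matched depth 15.7% of cells in Ad-Null and 62.3% in Ad-COMBO had a UMI of it. Cmpk2, a mitochondrial nucleotide kinase, measured 20.9 and 219 CPM in Ad-Null and Ad-COMBO. The NF-kB list had no gene past 2-fold in either direction (0 of 25, median -0.02), and the priming list 3 higher and 1 lower of 19 (median 0.19). Per cell, the priming list had medians of 5 and 10 in 10000 UMIs, which at the thinned depth is 1 and 2 UMIs. Without thinning, the same cells had medians of 7.10 in Ad-Null and 7.67 in Ad-COMBO.

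Genes associated with interferon gamma were higher here, with 14 of 22 higher and 3 lower (median 1.12). Gbp5, a guanylate-binding protein that attacks membranes of intracellular microbes, measured 37.4 CPM in Ad-Null, 57.1 in Ad-MEM40, 60.5 in Ad-mIFNB and 143 in Ad-COMBO. Igtp, an immunity-related GTPase, measured 42.8 and 134 CPM, and the transcription factor Irf1 167 and 358 CPM. Nos2, inducible nitric oxide synthase, measured 7.67, 15.3, 5.89 and 45.5 CPM in the library order given for Gbp5. Many of these genes also answer to type I interferon. The exceptions were Cxcl9, Ciita and Upp1. Cxcl9 measured 620.1 CPM in Ad-Null, 561 in Ad-MEM40, 95.3 in Ad-mIFNB and 152 in Ad-COMBO, and was found in 29.97% of cells in Ad-Null and 14.3% in Ad-COMBO at matched depth. Cxcl10, its relative, was higher, at 362 and 1194 CPM.

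Saa3 had the largest ratio in the class. It measured 32.5 CPM in Ad-Null, 141 in Ad-MEM40, 231 in Ad-mIFNB and 839 in Ad-COMBO, but 17 Ad-COMBO cells held its UMIs and 1 held 34.8% of them. At matched depth 1.90% of cells in Ad-Null and 14.3% in Ad-COMBO had one, and the log2 ratio without the top cell of each library was 4.01. Among lysosomal and phagocytic genes 5 of 21 were higher and none lower (median 0.51). Ctsl (cathepsin L) measured 756 CPM in Ad-Null, 849.6 in Ad-MEM40, 1271 in Ad-mIFNB and 2241 in Ad-COMBO. Gpnmb, a glycoprotein of phagocytes loaded with debris, measured 71.4, 113, 301 and 210.4 CPM in the same order. Mertk, a receptor for dead cells, measured 32.9 and 79.1 CPM in Ad-Null and Ad-COMBO, and the high-affinity antibody receptor Fcgr1 253 and 553 CPM. The sensors of nucleic acids Tlr3, at 14.7 and 57.2 CPM, and Tlr7 and Tlr13 were among 6 higher of 21 pathogen sensors (median 0.64).

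Molecules that restrain inflammation were higher in part. Cd274 measured 122 and 327 CPM. Il10, an anti-inflammatory cytokine, measured 21.1 CPM in Ad-Null, 31.4 in Ad-MEM40, 18.9 in Ad-mIFNB and 67.3 in Ad-COMBO, and Il18bp, which neutralizes interleukin 18, 28.7, 60.8, 80.3 and 159 CPM. The inhibitory list had 4 of 18 higher (median 0.43). Il1b, the inflammasome cytokine, was lower, at 417 and 148 CPM in Ad-Null and Ad-COMBO. Retnla measured 341 CPM in Ad-Null, 427 in Ad-MEM40, 43.2 in Ad-mIFNB and 5.05 in Ad-COMBO. At matched depth 6.48% of Ad-Null cells and 0 of 77 Ad-COMBO cells had a UMI of it, which allows up to 3.90% of cells with a UMI at that depth and does not limit the cells that express it. Unthinned, 23.8% and 5.13% of cells had one. Alternative activation genes had 6 lower and 1 higher of 15 (median -0.71, or -0.44 with genes at 0 UMIs set to 3 UMIs), the higher one being Folr2, a folate receptor of resident macrophages (73.7 and 181 CPM). Chemokines were split, with 5 higher and 5 lower of 19 (median 0.52).

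MHC class II presentation genes were lower in the C1q+ cells as summed, but not once called doublets were left out. Of 14 genes 8 were lower and 1 higher (median -1.02). H2-Aa measured 3137 CPM in Ad-Null, 3163 in Ad-MEM40, 2600.0 in Ad-mIFNB and 1505 in Ad-COMBO, and Ciita 79.9, 92.6, 49.1 and 32.5 CPM. The gene that was higher was Ctss (2384 and 5094 CPM). When called doublets were left out, 0 genes were lower and the median was -0.50. Markers of mature dendritic cells (3 lower of 10, sums 209.7 and 131 CPM) and cDC2 (4 lower and 1 higher of 10, sums 2239 and 2957 CPM) stood at these levels in the same cells, and their part in the result was not tested.

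**Figure D4:**
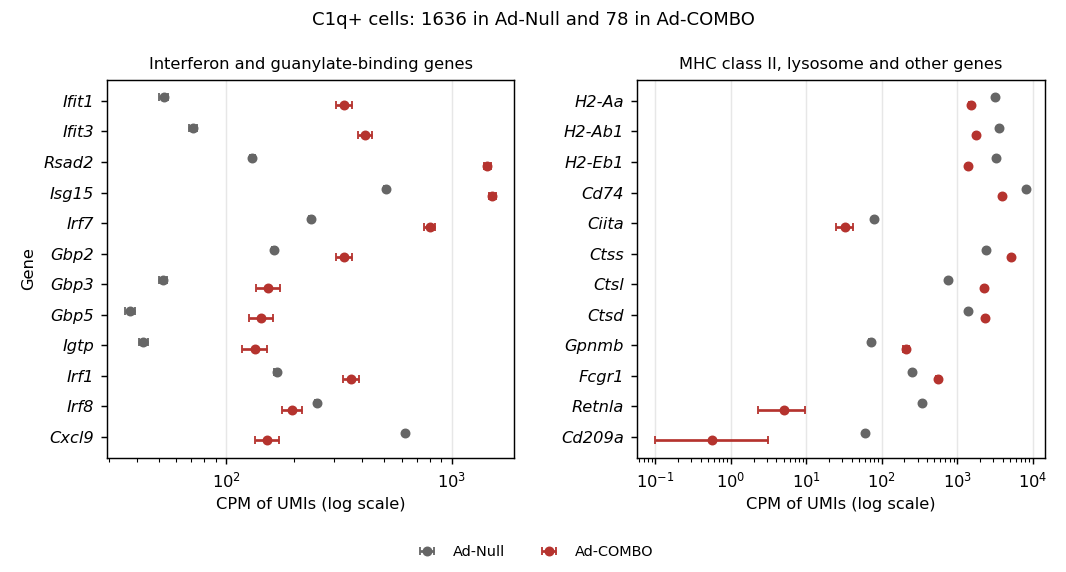
CPM of UMIs (horizontal log axis) in C1q+ cells of Ad-Null (grey) and Ad-COMBO (red), for interferon and guanylate-binding genes (left) and genes of MHC class II presentation, lysosomes and alternative activation (right); points are 1 library each and bars are exact 95% Poisson intervals. Interferon genes such as Ifit1, Ifit3, Rsad2, Isg15 and Irf7, and Ctss, Ctsl and Gpnmb, are higher in Ad-COMBO. Cxcl9, the MHC class II genes as summed, Retnla and Cd209a are lower. Ctsd stands above Ad-Null by less than 2-fold (log2 ratio 0.77).

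The remaining lists in C1q+ cells were counted in the same way. MHC class I genes had 6 higher of 23 (median 0.68). The cell cycle list had 1 lower of 20 (median -0.47), and the migration and maturation list 4 lower of 22 (median -0.17). Receptors had 3 lower of 23 (median 0.01), and glycolysis and stress lists had none past 2-fold (medians 0.02 and -0.01).

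Cells of no gate, 5675 in Ad-Null and 392 in Ad-COMBO, are of several kinds, and their median depth differed more than that of the classes (12660.0 and 6862 UMIs). Of 13700 genes compared, 433 (3.16%) were higher and 151 (1.1%) lower. They had the highest count of interferon genes, 37 higher of 40 (median 1.85). Ifit1bl1 measured 14.2 and 289.8 CPM, Ccl5 155 and 1309 CPM, and Ly6c2 137 and 1132 CPM. Among lower genes were some of monocytes and alternative activation. No Retnla UMI was found in Ad-COMBO against 222 CPM in Ad-Null (limit 0.778 CPM). Fn1 (fibronectin) measured 191 and 2.59 CPM, and Lyz2 969.8 and 133 CPM. Migration and maturation genes had 14 higher of 23 (median 1.17), with mature dendritic cell markers summing to 276 and 1064 CPM. Mature cells with fewer than 2 UMIs of a gate gene fall among these cells, and a change in kinds of cells cannot be told apart from a change within them.

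**Figure D5:**
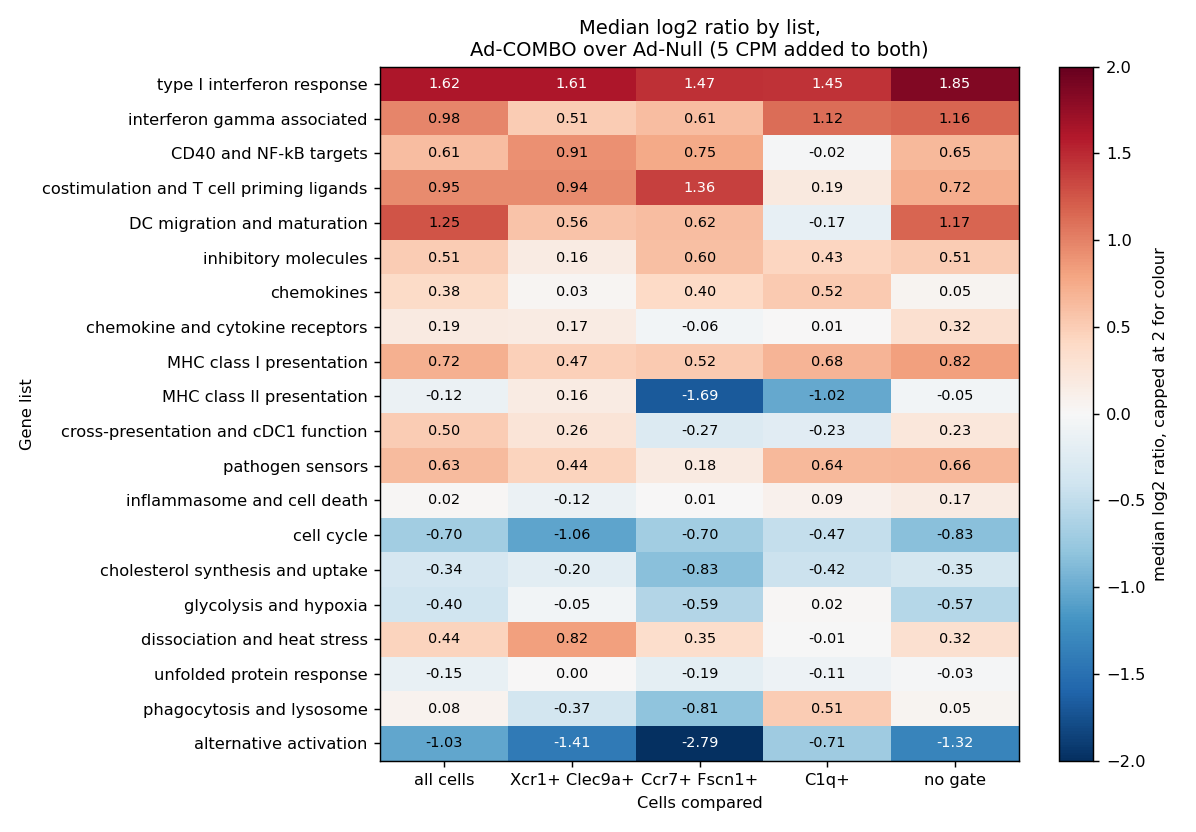
Median log2 ratio of Ad-COMBO over Ad-Null (5 CPM added to both) for the 20 gene lists (rows) over all cells, the 3 classes and cells of no gate (columns); colour runs from blue (lower in Ad-COMBO) to red (higher) and is capped at 2. The type I interferon list is at 1.45 or above in every column, whereas the NF-kB, priming and MHC class II lists differ between columns.

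The widest differences between classes were in Lyz2, Ly6c2 and Fn1, each between Ccr7+ Fscn1+ and C1q+ cells. In C1q+ cells Lyz2 measured 3499.8 and 3305 CPM, Ly6c2 59.0 and 29.7 CPM and Fn1 280.3 and 280.6 CPM in Ad-Null and Ad-COMBO, beside the Ccr7+ Fscn1+ levels given above. Lpl (lipoprotein lipase) measured 111 and 6.70 CPM in Ccr7+ Fscn1+ cells and 779.9 and 783 CPM in C1q+ cells. The genes that follow were among the 5 widest in 1 direction for a pair of classes. Naaa, a lysosomal lipid amidase, measured 1455 and 1587 CPM in Xcr1+ Clec9a+ cells of Ad-Null and Ad-COMBO, and 166 and 4.79 CPM in Ccr7+ Fscn1+ cells. H2-DMa measured 688 and 788 CPM in the first class, against the lower Ad-COMBO level given above in the other. Gpr183 measured 160.0 and 169 CPM in Ccr7+ Fscn1+ cells, where the Xcr1+ Clec9a+ cells had the lower Ad-COMBO level given above. Nr4a3, an orphan nuclear receptor induced by activation, measured 82.4 and 212 CPM in Xcr1+ Clec9a+ cells and 90.6 and 32.5 CPM in C1q+ cells. Dusp5, a phosphatase of ERK, measured 115 and 362 CPM in Xcr1+ Clec9a+ cells and 98.03 and 53.9 CPM in C1q+ cells. Dusp2, another phosphatase of MAP kinases, measured 122 and 484 CPM in Ccr7+ Fscn1+ cells and 67.5 and 66.8 CPM in C1q+ cells. With 1 library per treatment these differences between classes were not tested.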

How the data were processed

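The samples were 4 single-cell libraries, each from 3 pooled B16-F10 tumors, and Ad-COMBO was compared with Ad-Null. The authors deposited gene-by-barcode matrices of raw UMI counts per library. Cell Ranger 3.0, Seurat 4.0 and the mm10 build are named in the submitters' processing notes, while the file headers name Cell Ranger 6.0.0; reads mapping to near-identical genes may be split or lost by such counting. Totals per library are in the opening. Here UMIs were summed per library and class (Python 3.11.15, NumPy 2.4.6, SciPy 1.17.1, pandas 2.3.3), scaled to CPM, and compared as log2 ratios with 5 CPM added to both sides. Intervals were exact Poisson (CPM), conditional binomial (folds) and Clopper-Pearson (shares). Doublets were called with Scrublet in Scanpy 1.11.5. No test between treatments was possible with 1 library each. The scripts were tested on simulated counts.

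Genes named were, at 50 CPM or more in 1 library, the 20 highest and 15 lowest log2 ratios over all cells, the 10 highest and 8 lowest per class, the 5 largest and smallest differences between classes, and members of lists past 2-fold with a few others. Genes of mitochondria, ribosomes, haemoglobin, antigen receptor segments and sex chromosome dosage, and predicted genes, were not named. The comparison, the 20 gene lists (401 of 410 genes in the files) and the 14 marker lists were chosen with earlier results of these data known, so their directions are not independent support. Alternatives changed the cell filter, doublets, pseudocount, minimum level, scaling, depth, class weights, gates and single cells, and 2 were added after seeing the data. Members of the lists not matched by 1 symbol in the files (Mx1, Mx2, Cxcl11, Clec7a, Sting1, Mb21d1, Ccl19, Aldoa, Ddit3) were not used here. Sequences are from RefSeq.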

Additional observations from a re-analysis of the deposited data

Results flagged for a closer look

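The following differences between classes were noted because the 2 classes moved by more than 0.5 on the log2 scale in opposite directions, with counting intervals that excluded no change in both. Only genes named over all cells or per class, and list members past 2-fold, were screened. Other genes can meet the rule, such as Nr4a3 (1.31 in Xcr1+ Clec9a+ and -1.35 in C1q+ cells). With 1 library per treatment the differences were not tested, and each value is the log2 ratio of Ad-COMBO over Ad-Null in the first class minus that in the second. Ly6c2, a surface protein of monocytes and some plasmacytoid cells, was the widest, at 4.57 between Ccr7+ Fscn1+ and C1q+ cells (3.68 and -0.88) and 3.07 between Xcr1+ Clec9a+ and C1q+ cells (2.19 and -0.88). In C1q+ cells it measured 59.0 CPM in Ad-Null and 29.7 CPM in Ad-COMBO. Marcksl1, an actin regulator, differed by 1.64 between Xcr1+ Clec9a+ and C1q+ cells (1.14 and -0.50) and by 1.58 between Ccr7+ Fscn1+ and C1q+ cells (1.08 in the first). The monocyte-attracting chemokines Ccl2 and Ccl7 differed by -2.07 (-1.55 and 0.52) and -2.71 (-2.08 and 0.64) between Ccr7+ Fscn1+ and C1q+ cells. Both were near 0 in the Ccr7+ Fscn1+ class when cells that met more than 1 gate were kept, at 0.19 and 0.0530. Ctsd, a lysosomal protease, differed by -1.54 between the same classes (-0.77 and 0.77). Gbp2, a guanylate-binding protein, differed by -1.83 between Xcr1+ Clec9a+ and C1q+ cells (-0.81 and 1.01). Serpina3g, a protease inhibitor of activated immune cells, differed by 1.16 between Xcr1+ Clec9a+ and Ccr7+ Fscn1+ cells (0.61 and -0.56).

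Barcodes that failed the cell filter, which enter no comparison above, also held more interferon transcripts in Ad-COMBO. Over 283 such barcodes the type I interferon list made up 89.0 of every 10000 UMIs (87.0 to 91.1), against 34.7 (34.2 to 35.2) over 2563 barcodes of Ad-Null.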

How the results depend on the processing

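No paired analysis was possible because each treatment has 1 library. A list median was counted as changing sign only where its reported value was at least 0.5 in size. Of the list medians recomputed under other settings, 14 were so counted and 171 others moved by more than 0.25. Smaller medians changed sign too, such as that of chemokines in cells of no gate (0.05 as reported, -0.47 at the lowest). Of the log2 ratios of named or listed genes 19 changed sign, and the cause of the changes in medians and genes was not tested. Another 2658 were labelled as moved and 4296 were not. That label could fall on an unchanged value, so 2658 does not count ratios that changed with the processing. Il12b in cells of no gate had the label with cells of more than 1 gate kept, at the same log2 ratio as reported. Numbers of genes past 2-fold moved with the pseudocount, the minimum level, depth and, in some classes, the gates. With 1 CPM added, higher and lower genes were 635 and 259 over all cells, 483 and 574 in Xcr1+ Clec9a+, 933 lower in Ccr7+ Fscn1+, 477 and 560 in C1q+ and 793 and 534 in no gate. Among genes at 50 CPM or more, which tests fewer genes, they were 193 and 39, 145 and 73, 276 and 163, 35 lower in C1q+, and 252 and 69. Thinned to 2000 UMIs they were 135 lower over all cells, 487 lower in Xcr1+ Clec9a+, 288 and 268 in Ccr7+ Fscn1+, 404 and 829 in C1q+, and 306 lower in no gate. Lower genes in Ccr7+ Fscn1+ were 265 without doublets, 265 without cells with Lyz2 or Cd209a and 1003 with gates at 1 UMI. Lower genes were 67 in C1q+ without doublets and 284 in Xcr1+ Clec9a+ with gates at 4, 4 and 10 UMIs.

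Class shares moved with the gate and kept their order between the libraries. For Xcr1+ Clec9a+ in Ad-Null they were 10.4% (stricter cell filter), 11.8% (gates at 1 UMI), 4.84% (4, 4 and 10), 10.4% (cells of more than 1 gate kept) and 1.97% (thinned), and in Ad-COMBO 9.99% (4, 4 and 10) and 4.08% (thinned). For Ccr7+ Fscn1+ in Ad-Null they were, in the same order, 5.19%, 5.04%, 3.83%, 6.35% and 3.8%, and in Ad-COMBO 16.2% (gates at 1 UMI) and 10.1% (4, 4 and 10). For C1q+ in Ad-Null they were 16.4% (no doublets), 24.8%, 16.6%, 21.4% and 12.9%, and in Ad-COMBO 14.3% and 9.24%.

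The medians below were at least 0.5 in size as reported and changed sign. Smaller medians that did so are not listed. They were DC migration and maturation in Xcr1+ Clec9a+ (-0.00232, gates at 4, 4 and 10) and phagocytosis and lysosome in Ccr7+ Fscn1+ (0.0273 without cells with Lyz2 or Cd209a). Among marker lists, cDC1 did in Ccr7+ Fscn1+ (0.331 at 50 CPM, 0.184 with cells of more than 1 gate, 0.0320 without cells with Lyz2 or Cd209a). Mature DC did in Xcr1+ Clec9a+ (-0.271, gates at 4, 4 and 10). The pDC list did in Xcr1+ Clec9a+ (0.392 without doublets) and C1q+ (0.175 without doublets, 0.330 at 50 CPM, 0.120 thinned). Monocyte did in Xcr1+ Clec9a+ (0.196 thinned) and Ccr7+ Fscn1+ (0.307 without cells with Lyz2 or Cd209a). Macrophage did in Xcr1+ Clec9a+ (0.0236 with cells of more than 1 gate) and neutrophil in C1q+ (-0.00729 with a minimum of 1 UMI). Gene log2 ratios that changed sign were, with cells of more than 1 gate kept in Ccr7+ Fscn1+, Arg1 (0.18), Ccl2 (0.19), Ccl6 (0.31), Ccl7 (0.0530), Lgals3 (0.0260) and Ube2c (0.25), and in C1q+ Il12b (0.83). With gates at 4, 4 and 10 UMIs, Ccl17 (-0.20) and Ccl22 (-0.60) did in Xcr1+ Clec9a+. With gates at 1 UMI, Ccr7 (0.89) did in C1q+ and Ccl8 (-0.89) in no gate. Without doublets Ccr9 (0.14) and H2-Oa (0.48) did in C1q+, and thinned H2-Oa (0.12) in C1q+ and Rrm2 (0.29) in no gate. Without the cell with the most UMIs, Apol7c did over all cells (-0.30) and in Ccr7+ Fscn1+ (-1.81), and Cx3cr1 in no gate (-1.32, and -1.20 with the stricter filter). Depth limits Ad-COMBO: 3 UMIs are 2.87 CPM in its Ccr7+ Fscn1+ cells and 0.420 CPM in those of Ad-Null.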
